A study of Mus musculus with 32 samples.

Results

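The 32 genes described here mark B lymphocytes. They were taken from a list of B cell genes that was chosen with earlier results of these data known. Through GENCODE M21 on mm10 they were matched to the identifiers of the count files. In all, 32 of 32 were found among the 25059 genes of the RNA-seq files. Female wild-type C57BL/6J mice, 6 to 7 months old, received 10 mg per kg of cisplatin into the peritoneum at ZT1 (1 h after lights on) and were killed at ZT5, which is 4 h later, although the sample labels state 2 h. Control mice received the same volume of saline. Damage-seq (platinum adducts left in DNA) and XR-seq (oligomers excised by repair) were made from cisplatin-treated kidney, liver, lung and spleen, and RNA-seq from treated and control organs, with 2 libraries per group and 32 in all. Organs were used whole, so that fewer B cells and less RNA per B cell cannot be told apart.

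B cells sense antigen with a membrane immunoglobulin that signals through Cd79a and Cd79b, and coreceptors and Src-family, Tec-family and adaptor proteins tune that signal. The lineage is set and kept by transcription factors such as Pax5 and Ebf1, and mature B cells present peptides on MHC class II and gather in follicles through Cxcr5. The spleen is a major B cell organ, and the lung holds B cells in its blood and in associated lymphoid tissue. Cisplatin forms adducts mainly between neighbouring guanines, and nucleotide excision repair removes them, faster on the transcribed strand (TS) of an active gene than on the non-transcribed strand (NTS).

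Promoter windows are shown first for members that fell in lung (Fcrl1, Bank1 and Spib) and for Vpreb3, which did not, because these windows hold a match to a motif of B cell factors. Each is the 250 bases before the RefSeq transcription start (GRCm38.p6), 5′ to 3′ on the gene's strand, with matches in capitals, and none of the 4 overlaps an annotated exon. They lie at chr3:87376137-87376386 (+), chr3:136326067-136326316 (-), chr7:44532072-44532321 (-) and chr10:75948050-75948299 (+). The last, that of Vpreb3, lies inside the GENCODE gene body used for the counts, which starts upstream at chr10:75943057.
Fcrl1: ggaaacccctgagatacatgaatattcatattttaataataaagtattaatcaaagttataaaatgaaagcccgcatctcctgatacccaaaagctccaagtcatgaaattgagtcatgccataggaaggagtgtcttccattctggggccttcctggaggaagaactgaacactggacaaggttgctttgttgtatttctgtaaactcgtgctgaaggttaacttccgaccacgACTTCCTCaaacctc
Bank1: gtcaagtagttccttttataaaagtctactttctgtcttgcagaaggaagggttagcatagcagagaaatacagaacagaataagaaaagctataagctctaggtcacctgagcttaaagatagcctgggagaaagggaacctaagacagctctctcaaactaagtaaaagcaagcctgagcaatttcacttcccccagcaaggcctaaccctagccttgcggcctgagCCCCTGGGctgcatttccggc
Spib: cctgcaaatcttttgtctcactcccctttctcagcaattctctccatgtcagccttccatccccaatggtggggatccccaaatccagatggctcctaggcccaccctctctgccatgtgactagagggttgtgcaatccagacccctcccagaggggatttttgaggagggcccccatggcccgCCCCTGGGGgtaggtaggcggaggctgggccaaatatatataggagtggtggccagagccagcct
Vpreb3: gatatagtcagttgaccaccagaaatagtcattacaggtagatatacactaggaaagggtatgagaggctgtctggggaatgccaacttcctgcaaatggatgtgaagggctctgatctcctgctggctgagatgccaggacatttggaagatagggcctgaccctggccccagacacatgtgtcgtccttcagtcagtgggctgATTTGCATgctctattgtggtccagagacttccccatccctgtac
The capitals mark a PU.1-type match (GAGGAAGT, here on the opposite strand) starting 15 bases before the start of Fcrl1, an EBF-type match (CCCNNGGG) 21 bases before that of Bank1, a pair of overlapping EBF-type matches 65 and 64 bases before that of Spib, and an octamer (ATGCAAAT, opposite strand) 45 bases before that of Vpreb3. The windows of Cd72, Cd22, Cd37, H2-DMb2 and Blnk also hold a match, but each of them overlaps an annotated exon. Windows were given for 24 of the 32 members. On either strand, the octamer was found for 2 of these 24 genes against 1.81% of all 27025 genes with a window, the EBF-type motif for 4 against 13.4%, and the PU.1-type motif for 3 against 2.79%. Such matches describe letters and show no binding.

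All 32 members had RNA in spleen, where they were high. After cisplatin, 32 of 32 members were above the mean of kidney and liver in spleen (median log2 difference 7.27; 32.5% of all genes tested passed in this direction), from 2.95 ± 0.16 (SE) in Ralgps2 to 8.89 ± 0.35 in Pax5. In lung, 29 of 32 were above kidney and liver (median 2.35; 31.1% of all genes). Ralgps2 (-0.44 ± 0.17), Cd72 (-0.38 ± 0.27) and Blnk (-0.13 ± 0.24) did not pass there. In control libraries the lung level was between 4.60% (Cr2) and 28.8% (Cd74) of the spleen level for 31 members. Vpreb3 was the exception, at 143% of spleen.

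In lung, B cell RNA was lower after cisplatin. Both treated libraries lay below both control libraries in 29 of the 32 members, where 29.5% of all genes tested did so. The 2 control libraries of lung, and the 2 of spleen, differed by little more than sampling noise and count as 1 sample each. The members come from the same libraries, so the 29 are not independent observations. The log2 fold change was negative in 30 of 32, with a median of -1.66 beside 0.01 over all genes. With edgeR's quasi-likelihood test and Benjamini-Hochberg adjustment over all genes, 8 members passed, all 8 lower, against a background of 0.372% of genes called lower and 0% called higher. These were Cr2, Ebf1, Bach2, Pax5, Faim3, Bank1, Fcrl1 and Spib. Of these, Ebf1 and Pax5 lay closest to the threshold, and the calls were not all kept under other settings. Unadjusted, 28 of 32 had a p under 0.05 in the same test, as did 1415 of all 19088 genes. The members were chosen with earlier results of these data known. The shares over all genes therefore describe the list and do not test it. In spleen 0 of 32 passed, with 0 at an unadjusted p under 0.05 and 0 by DESeq2, while 0.12% of all genes were called higher and 0.0157% lower. Without either one of the 2 treated lung libraries, a lone treated sample was set against 1 control sample. The fold change was then negative in 31 of 32 members (without the first) and 30 of 32 (without the second). The lone sample was assumed to vary like the other groups, so the count of members passing in lung is not read there. The count in lung also fell when the second lung control library or either treated spleen library was left out. No share over all genes is set beside that fall, so it is not read as particular to the members.

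**Figure D1:**
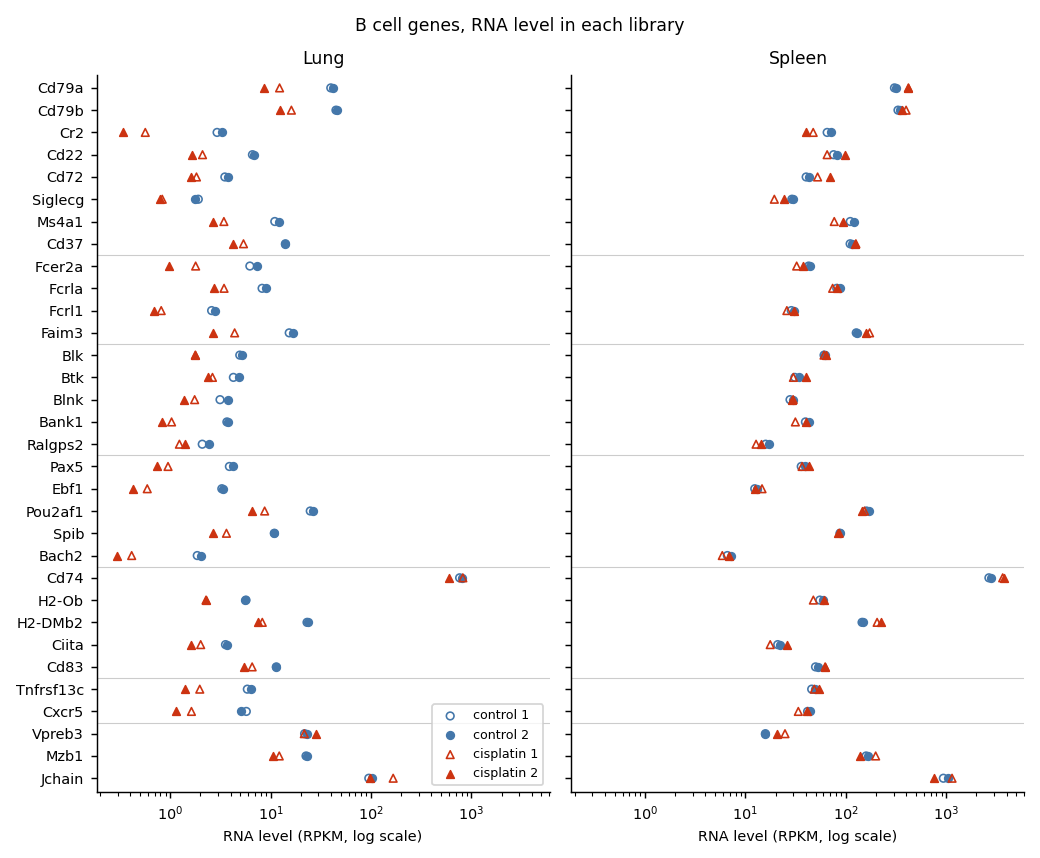
RNA level of each member in lung (left) and spleen (right), in RPKM on a log axis. Circles are control and triangles cisplatin libraries, open for replicate 1 and filled for replicate 2, and lines part the role groups. In lung the triangles lie left of the circles in 29 of 32 genes, and in spleen the symbols of most genes lie close together.

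Among the B cell receptor complex and its coreceptors, 1 of 8 members passed in lung, 8 of 8 had a negative fold change (median -1.80), and 0 of 8 passed in spleen. Cr2, the complement receptor CD21 that lowers the threshold for antigen, had the largest fall. Its lung level was 2.94 and 3.32 RPKM in the controls and 0.57 and 0.34 RPKM after cisplatin, a log2 fold change of -2.87 ± 0.36 (SE; 7.33-fold lower, edgeR adjusted p = 0.021). In spleen it measured 65.3 and 70.8 RPKM in the controls and 47.4 and 40.3 RPKM after cisplatin, and both treated libraries were again the lower, but the log2 fold change of -0.69 ± 0.36 did not pass (edgeR adjusted p = 1). Cd79a, a signalling chain of the receptor, had the highest level of this group. It stood at 39.8 and 42.0 RPKM in lung controls and at 12.3 and 8.66 RPKM in treated lung, with no overlap, and its log2 fold change of -2.01 ± 0.51 missed the threshold (edgeR adjusted p = 0.20). In spleen the order was the opposite, with 306 and 316 RPKM in the controls and 421 and 415 RPKM after cisplatin (0.38 ± 0.54, edgeR adjusted p = 1). The other members of the group, Cd79b, Cd22, Cd72, Siglecg, Ms4a1 (CD20) and Cd37, had lung log2 fold changes from -1.14 (Cd72) to -1.98 (Ms4a1).

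Of the immunoglobulin and Fc receptor-like proteins, Faim3 and Fcrl1 passed in lung. Faim3 (Fcmr in GENCODE), a receptor for IgM, measured 15.4 and 16.9 RPKM in lung controls and 4.39 and 2.67 RPKM after cisplatin, a log2 fold change of -2.26 ± 0.35 (edgeR adjusted p = 0.035). In spleen it was 127 and 130 RPKM in the controls and 173 and 159 RPKM after cisplatin, so that the treated libraries were higher without passing (0.33 ± 0.37). Fcrl1, an Fc receptor-like protein of B cells, was at 2.59 and 2.82 RPKM in lung controls and at 0.82 and 0.70 RPKM in treated lung (-1.90 ± 0.24, edgeR adjusted p = 0.024). Its spleen libraries overlapped, with 28.7 and 30.9 RPKM in the controls and 25.9 and 30.7 RPKM after cisplatin. Fcer2a, the low-affinity IgE receptor CD23, had a log2 fold change of -2.39 ± 0.50 in lung that did not pass (edgeR adjusted p = 0.10), and Fcrla had -1.54 ± 0.43.

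Bank1, a scaffold of receptor signalling, was the 1 of 5 kinases and adaptors that passed in lung. It fell from 3.68 and 3.80 RPKM in the controls to 1.03 and 0.83 RPKM (-2.05 ± 0.32, edgeR adjusted p = 0.037). In spleen its 4 libraries lay between 31.5 and 43.2 RPKM, and treated and control values overlapped (-0.27 ± 0.33). Blk, a Src-family kinase and the most highly expressed gene of this group, measured 4.94 and 5.19 RPKM in lung controls and 1.78 and 1.76 RPKM after cisplatin (-1.56 ± 0.34, edgeR adjusted p = 0.15). Its spleen values of 60.8 and 62.7 RPKM in the controls and 60.8 and 64.2 RPKM after cisplatin overlapped. Blnk, an adaptor, Btk, a Tec-family kinase, and Ralgps2, a Ral exchange factor, had lung log2 fold changes of -1.23, -0.94 and -0.85 and did not pass.

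The transcription factors had 4 of 5 members called lower in lung and 0 of 5 called in spleen. Ebf1, which specifies the B lineage, was at 3.27 and 3.39 RPKM in lung controls and at 0.59 and 0.43 RPKM after cisplatin, a log2 fold change of -2.76 ± 0.47 (edgeR adjusted p = 0.050). Its spleen libraries overlapped, with 12.4 and 13.1 RPKM in the controls and 14.7 and 12.4 RPKM after cisplatin (0.03 ± 0.49). Bach2, a repressor that holds back plasma cell differentiation, fell from 1.86 and 2.01 RPKM to 0.41 and 0.30 RPKM in lung (-2.50 ± 0.38, edgeR adjusted p = 0.033). In spleen it measured 6.62 and 7.22 RPKM in the controls and 5.90 and 6.82 RPKM after cisplatin, which overlap (-0.19 ± 0.39). Pax5, the factor that maintains B cell identity, stood at 3.90 and 4.24 RPKM in lung controls and at 0.95 and 0.73 RPKM after cisplatin (-2.33 ± 0.39, edgeR adjusted p = 0.049). Its spleen values were 36.0 and 38.9 RPKM in the controls and 36.8 and 42.8 RPKM after cisplatin, and they overlapped. Spib, an Ets factor related to PU.1, fell from 10.9 and 10.8 RPKM to 3.64 and 2.65 RPKM in lung (-1.82 ± 0.28, edgeR adjusted p = 0.038) and was between 83.6 and 88.3 RPKM in all 4 spleen libraries. Pou2af1, the octamer coactivator, had the highest level of the group, at 24.9 and 26.7 RPKM in lung controls and 8.74 and 6.58 RPKM after cisplatin, with a log2 fold change of -1.81 ± 0.58 that did not pass (edgeR adjusted p = 0.37). In spleen it measured 161 and 172 RPKM in the controls and 154 and 145 RPKM after cisplatin (-0.21 ± 0.59).

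**Figure D2:**
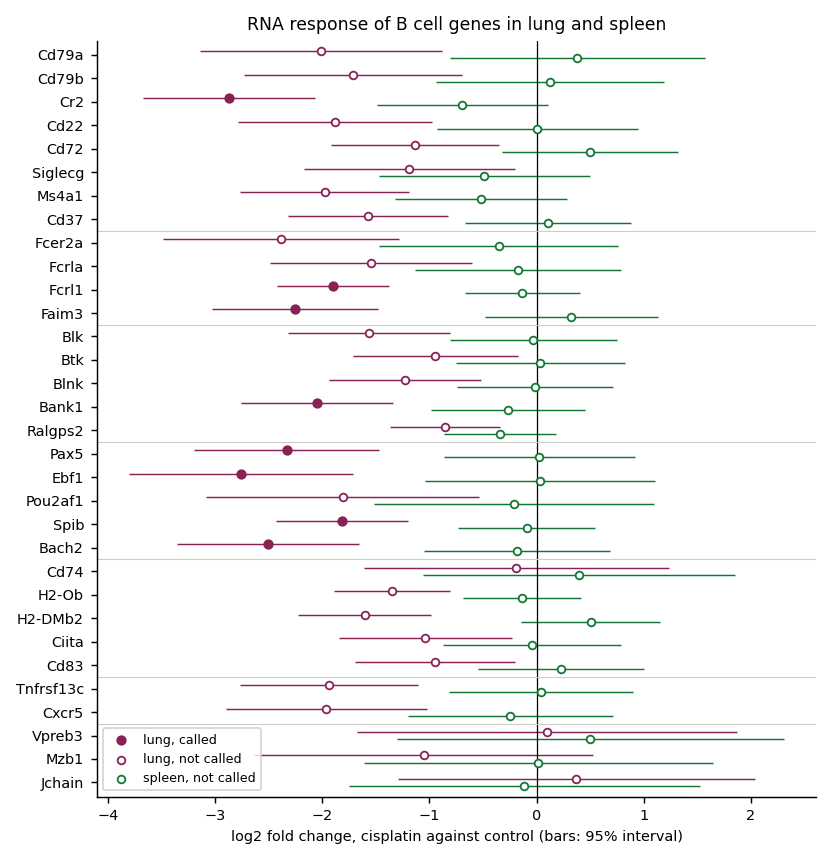
Log2 fold change of each member, cisplatin against control, in lung (purple) and spleen (green) with 95% intervals. Filled points passed the test against 0.4 at an adjusted p under 0.05. The 8 filled points are all in lung and lie between -1.82 and -2.87, and the spleen points lie between -0.69 and 0.50.

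The antigen presentation genes had 0 of 5 members called in either organ. Cd74, the invariant chain of MHC class II, was by far the highest member and did not separate the groups in lung, with 765 and 802 RPKM in the controls and 824 and 595 RPKM after cisplatin (-0.19 ± 0.64). In spleen it was at 2667 and 2773 RPKM in the controls and at 3658 and 3753 RPKM after cisplatin, higher in both treated libraries without passing (0.40 ± 0.66, edgeR adjusted p = 1). H2-DMb2 and H2-Ob, which help to load or restrain class II peptide loading, had lung log2 fold changes of -1.61 and -1.35, Ciita, the class II transactivator, -1.04, and Cd83 -0.94. The list of 10 further MHC class II genes had 0 called in lung and a median of -0.07.

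Both survival and homing receptors were lower in treated lung without passing. Tnfrsf13c, the BAFF receptor, measured 5.88 and 6.46 RPKM in lung controls and 1.97 and 1.41 RPKM after cisplatin (-1.94 ± 0.38, edgeR adjusted p = 0.095). In spleen it was at 45.8 and 49.6 RPKM in the controls and at 48.6 and 54.0 RPKM after cisplatin, which overlap. Cxcr5, the follicle homing receptor, had a lung log2 fold change of -1.96 ± 0.42. Antibody assembly and secretion genes were the group in which lung values did not fall together, with a median of 0.10. Jchain, which joins IgA and IgM into polymers, was at 95.3 and 102 RPKM in lung controls and 167 and 97.9 RPKM after cisplatin (0.37 ± 0.75), and Vpreb3, linked to light chain assembly, at 21.9 and 23.3 RPKM in the controls and 21.7 and 28.4 RPKM after cisplatin (0.10 ± 0.80). In spleen Jchain was at 938 and 1038 RPKM in the controls and at 1145 and 760 RPKM after cisplatin. Mzb1, an endoplasmic reticulum chaperone, had both treated lung libraries below the controls (-1.05 ± 0.72), and its gene body lies wholly within the body of another annotated gene on the same strand.

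In spleen, 8 members had both treated libraries below both controls (27.4% of all genes tested) and 9 had both above (27.6%). The 9 were Cd79a, Cd79b, Cd72, Cd37, Faim3, Cd74, H2-DMb2, Cd83 and Vpreb3, and the 8 were Cr2, Siglecg, Ms4a1, Fcer2a, Ralgps2, Pou2af1, Spib and Cxcr5. No fold change in either set passed. The difference between the lung and the spleen response was negative in 31 of 32 members (median -1.66), but 0 of 32 passed its own test in edgeR, where 0.0105% of all genes passed as lower and 0% as higher. At an unadjusted p under 0.05 there were 22 members and 813 of all 19088 genes, and DESeq2 called 6 members and 111 of all 24835 genes. The largest difference was that of Ebf1, -2.79 ± 0.71 (edgeR adjusted p = 0.50).

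In kidney and liver most members also had negative fold changes, and few passed. The fold change was below 0 in 28 of 32 members in kidney (median -0.73) and in 26 in liver (median -0.45), beside a median of 0 over all genes in both. Both treated libraries lay below both controls in 19 members in kidney (26.3% of all genes) and in 11 in liver (20.7%). The kidney controls differed from each other. Glycam1, a high endothelial venule gene, was at 0.09 and 3.0 RPKM in them and at 0.09 and 0.04 RPKM after cisplatin. Ighm, an immunoglobulin constant region, was at 35.5 and 180 RPKM in the controls and at 39.3 and 29.0 RPKM after cisplatin. The member Cd72 went the other way between the controls, at 1.66 and 1.40 RPKM. The part of this difference in the kidney values was not tested. In kidney 2 members were called lower (1.41% of all genes), Spib (-1.53 ± 0.30) and Bach2 (-2.67 ± 0.39), and in liver 2 (2.31% of all genes), Bank1 (-1.71 ± 0.30) and Bach2 (-2.62 ± 0.38). Bach2 was at 0.35 and 0.50 RPKM in kidney controls and at 0.03 and 0.09 RPKM after cisplatin, and at 0.93 and 1.05 RPKM in liver controls and 0.18 and 0.13 RPKM after cisplatin. It was thus called lower in kidney, liver and lung, while its spleen values overlapped. Gene length, looked at after the values were seen, moved with the lung calls. Of the 5 members with a gene body over 100000 bp (Bank1, Ralgps2, Pax5, Ebf1 and Bach2), 4 were called there, with a median of -2.33, and of the 27 shorter members 4, with a median of -1.57. The part of length in the result was not tested.

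Few genes of the other B lineage lists passed in lung. Of 13 other B lineage genes 1 was called lower, Bcl11a (-2.28 ± 0.23). Of 3 immunoglobulin constant regions 1 was called lower, Ighd, which encodes the heavy chain of IgD on naive B cells. It measured 60.8 and 64.4 RPKM in lung controls and 7.75 and 5.21 RPKM after cisplatin (-3.32 ± 0.47). Ighm, with 849 and 897 RPKM in the controls and 1226 and 752 RPKM after cisplatin, overlapped between the groups. In spleen 0 genes of these lists were called.

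Markers of several other cell types differed between the same lung libraries. The summed level of 4 high endothelial venule genes was 60.4 and 64.7 RPKM in the controls and 4.99 and 3.58 RPKM after cisplatin, and nearly all of it was Glycam1, at 54.5 and 58.4 RPKM in the controls against 0.12 and 0.03 RPKM. Of these 4 venule genes 1 was called lower. The sum of 3 thymocyte genes was 10.2 and 11.5 RPKM in the controls and 0.33 and 1.08 RPKM after cisplatin. Ptcra was at 0 in 1 treated library, and 0 of the 2 genes tested were called. The sum of 13 T cell genes was 89.4 and 93.6 RPKM against 29.7 and 27.3 RPKM, with 2 of 13 called lower (Cd8a and Bcl11b) and 13 of 13 below 0. The sum of 3 kidney tubule genes was 45.7 and 47.5 RPKM in the controls and 4.02 and 0.08 RPKM after cisplatin. Kap was at 0 in 1 treated library, and 0 of 3 were called. The sum of lymphoid stroma genes was 25.9 and 28.2 RPKM in the controls and 13.4 and 8.7 RPKM after cisplatin, with 0 of 2 tested called. Germinal centre and proliferation genes summed to 21.2 and 22.8 RPKM against 14.9 and 12.1 RPKM, with 1 of 5 called lower. Dendritic cell genes summed to 6.0 and 6.4 RPKM against 4.4 and 5.0 RPKM, with 0 of 4 called. Lung epithelium (83870 and 88610 RPKM against 83070 and 104000 RPKM) and the plasma cell sum (118 and 125 RPKM against 128 and 122 RPKM) showed no such gap. That sum was mostly Sdc1 and Xbp1, which were higher still in liver controls. Of its other genes, Irf4 was lower (3.24 and 3.51 RPKM against 2.19 and 1.61 RPKM), and Tnfrsf17 and Prdm1 overlapped. The sum therefore does not show whether plasma cells differed. Neutrophil genes summed to 58.9 and 65.2 RPKM in the controls and 107 and 154 RPKM after cisplatin, with 0 of 5 called, and erythroid genes to 2103 and 2074 RPKM against 1195 and 923 RPKM, with 0 of 6 called. In spleen, 5 of 5 pancreas genes were called higher, from a sum of 0.42 and 0.36 RPKM in the controls to 998 and 761 RPKM. The part of these cell type differences in the B cell results was not tested, and no lung comparison without them can be made, since both control libraries carry them.

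**Figure D3:**
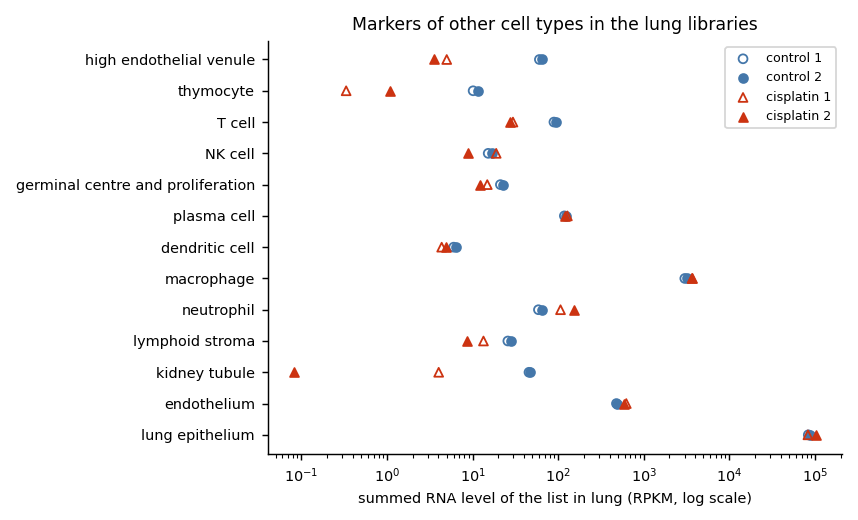
Summed RNA level (RPKM, log axis) of marker lists of other cell types in the 4 lung libraries, with circles for control and triangles for cisplatin libraries. The high endothelial venule, thymocyte, T cell and kidney tubule lists lie lower in both treated libraries. So do the lymphoid stroma, germinal centre and proliferation, and dendritic cell lists, by less. The lung epithelium, endothelium and plasma cell lists lie close together.

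Relative to all XR-seq reads of a library, the TS reads of these genes were high in spleen. This scaling gives a gene's share of the repair reads and not the amount repaired, here and in the XR-seq results below. Over the 32 members together, 1641 and 1690 CPM (reads per 1000000 reads on genes) fell on their TS in the 2 spleen libraries, compared with 504 to 793 in the 6 libraries of other organs. Per gene, 26 of 32 were higher in spleen than in the mean of kidney and liver (median log2 difference 3.48; 16.6% of all genes tested were called higher), and 0 were lower. The 6 that did not pass were Cd79a, Blnk, Ralgps2, Vpreb3, Mzb1 and Jchain. The background of 16.9% of all genes called lower in spleen had no counterpart among the members.

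The 6 members with most TS reads in spleen, which include all 5 with a gene body over 100000 bp, differed in pattern. Pax5 was specific in level, at 11.7 and 14.4 CPM per 1000 GG in spleen, with 0.19 and 0.77 in kidney, 0.30 and 0.34 in liver and 0.47 and 0.34 in lung (spleen difference 4.96 ± 0.33 log2, edgeR adjusted p = 1.91e-07). Bank1 was also highest in spleen, with 8.66 and 9.30 in spleen and 0.02 to 0.62 in the 6 other libraries (5.14 ± 0.36 log2). Ebf1 was highest in spleen at 12.9 and 13.2, intermediate in lung at 5.63 and 5.25 and in kidney at 4.44 and 4.73, and low in liver at 0.32 and 0.59 (spleen 3.11 ± 0.17 log2). Bach2 was repaired in each organ, at 29.0 and 26.3 in spleen, 18.9 and 17.7 in lung, 22.9 and 15.8 in liver and 9.44 and 9.25 in kidney (spleen 0.97 ± 0.13 log2). Ralgps2 was highest in liver at 36.8 and 31.8, followed by spleen at 19.9 and 22.7, and Blnk reached 17.2 and 18.2 in spleen, 20.6 and 19.5 in kidney, 12.6 and 20.6 in liver and 1.52 and 1.38 in lung. The spleen differences of Ralgps2 (-0.09 ± 0.11 log2) and Blnk (-0.11 ± 0.17 log2) did not pass.

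In lung the TS signal did not follow the RNA difference between organs. Against kidney and liver, 4 of 32 members were called higher in XR-seq (18.2% of all genes) and 5 lower (18.5%), with a median of -0.14, where 29 of 32 were higher in lung RNA after cisplatin. The 4 were Cd74 (3.05 ± 0.32 log2), Ciita (2.17 ± 0.17), Ebf1 (1.82 ± 0.16) and Cd37 (1.48 ± 0.35), and the 5 were Blnk (-3.75 ± 0.21), Vpreb3 (-2.92 ± 0.55), Cxcr5 (-2.35 ± 0.49), Mzb1 (-2.13 ± 0.50) and Ralgps2 (-1.05 ± 0.11). Cd74 had 24.8 and 22.7 TS CPM per 1000 GG in lung, 15.03 and 23.2 in spleen, 5.37 and 3.44 in kidney and 1.45 and 1.79 in liver. Vpreb3, whose RNA in lung was 5.08 ± 0.63 log2 above that of kidney and liver, had 1.48 and 1.71 in lung XR-seq, 24.2 and 14.6 in kidney, 5.50 and 7.52 in liver and 6.64 and 5.75 in spleen. Pax5 (-0.07 ± 0.35 log2) and Bank1 (-0.31 ± 0.40 log2) did not differ detectably between lung and the 2 other organs. The count of members called in lung moved when either kidney library was left out. No count over all genes is set beside this change, so it is not read as particular to the members.

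**Figure D4:**
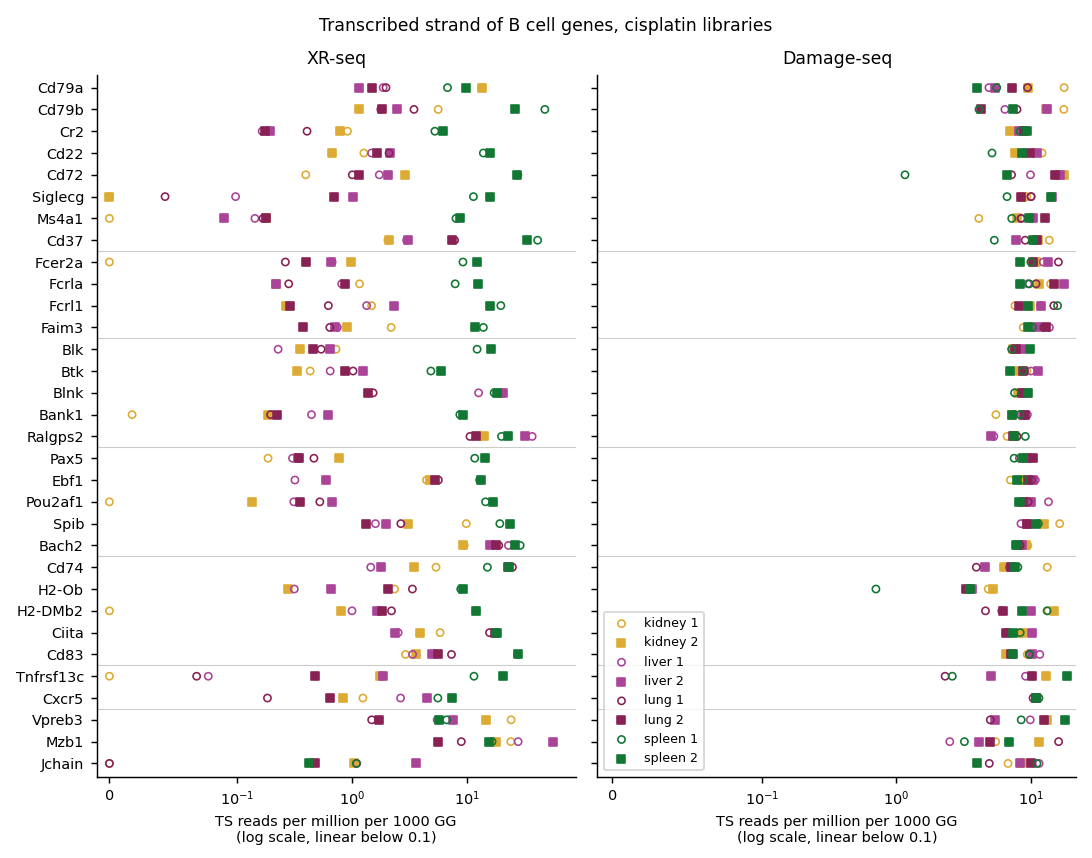
TS reads per 1000000 reads on genes (CPM) per 1000 GG for each member in XR-seq (left) and Damage-seq (right), on an axis that is logarithmic above 0.1 and linear below. Colours are organs and shapes the 2 libraries of each. In XR-seq the spleen points of most genes lie to the right of the other organs, and in Damage-seq the organs overlap.

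Relative to all reads of a library, damage on the same genes hardly differed between organs. This scaling removes any difference in total adducts between organs. The study reports such a difference, with kidney highest and spleen lowest. The members' TS took 860 and 844 CPM in spleen Damage-seq and 867 to 953 in the other 6 libraries, and their NTS 899 to 1006 over all 8. Against kidney and liver, 0 members were higher and 1 was lower on the TS in spleen (1.48% and 0.982% of all genes), and 0 of 32 differed in lung (1.95% higher and 2.01% lower over all genes), with 2 and 4 at an unadjusted p under 0.05. The 1 was Cd72, with 1 and 8 TS reads in the spleen libraries and 21 to 60 in the others (-1.79 ± 0.49 log2), and it was not called by DESeq2, without either spleen library or without the second liver library. On the NTS 0 of 30 members tested passed in spleen or in lung, with 3 and 2 at an unadjusted p under 0.05, 0 by DESeq2 in both, with 0.0346% of all genes called higher and 0.0148% lower in spleen and 0% either way in lung. Pax5, with a 4.96 log2 difference in repair, had a difference in TS damage of -0.16 ± 0.12 log2 (95% interval -0.39 to 0.08), and Bank1 one of 0.01 ± 0.13 log2 (-0.24 to 0.26). These libraries held 1571167 to 6441367 reads on genes, and no member had more than 352 TS reads in a spleen library, so that small differences were not detectable.

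On the NTS, XR-seq differed less. Of 31 members tested 10 were higher and 0 lower in spleen (8.92% and 7.38% of all genes) and 5 higher and 1 lower in lung (9.2% and 5.95%). The spleen differences on the NTS that passed ran from 0.54 ± 0.16 log2 in Ciita to 4.998 ± 0.85 in Fcrl1, and Pax5 had 1.61 ± 0.34. The call count was 3 in spleen and 3 in lung when libraries were scaled by reads on both strands. It also moved when 1 library was left out. No count over all genes is set beside these changes, so they are not read as particular to the members.

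Within a library, repair favoured the TS over all members, but single genes went both ways. Of the members' XR-seq reads, 86.7% and 87.2% lay on the TS in spleen, 81.1% and 81.5% in lung, 77.2% and 75.3% in kidney and 79.8% and 75.2% in liver (the widest 95% Wilson interval, that of the first kidney library, ran from 76.5% to 78.0%, for counting error only), beside 83.8% to 90.0% over all genes. With the GG count as an offset, TS exceeded NTS in 13 of 32 members in spleen, 10 in lung, 6 in kidney and 5 in liver, and was below it in 1, 5, 3 and 7. Over all genes 56.6%, 57.9%, 55.1% and 49.8% were called higher, and 7.13%, 7.49%, 6.3% and 7.29% lower, so that fewer members than genes at large passed as higher. Bank1 had 1129 TS and 22 NTS reads in the first spleen library and 3943 and 227 in the second (4.76 ± 0.72 log2), and Bach2 had TS above NTS in all 4 organs, by 3.29 to 4.30 log2.

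Cr2, Cd72, Fcer2a and Cxcr5 carried more repair on the NTS than on the TS in kidney, liver and lung. The TS share of Cxcr5 was 33% in kidney, 27% in liver and 13% in lung, and 59% in spleen. Cd72, an inhibitory coreceptor, had 33 TS and 1957 NTS reads in the first lung library and 27 and 1084 in the second (-5.25 ± 0.45 log2), and in spleen 162 and 335, and 522 and 1065. Its body overlaps Tesk1 on the opposite strand over 19.6% of its length. Fcer2a had 12 and 13 TS reads against 1065 and 734 NTS reads in lung (-5.79 ± 0.61 log2), with 75 and 215, and 325 and 624, in spleen. Cr2 had 39 and 12 TS against 516 and 309 NTS reads in lung (-4.02 ± 0.45 log2). No annotated gene overlaps the bodies of Fcer2a or Cr2 on the other strand, and 0.2% of that of Cxcr5 is overlapped. Cd79a was lower on the TS in spleen (-1.39 ± 0.49 log2), lung and liver, and in kidney the TS had the larger share, 63.1% of 452 reads. Genes annotated on the other strand overlap 100% of the body of Ms4a1 and 53.5% of that of Ciita, and their part in these reads was not tested.

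**Figure D5:**
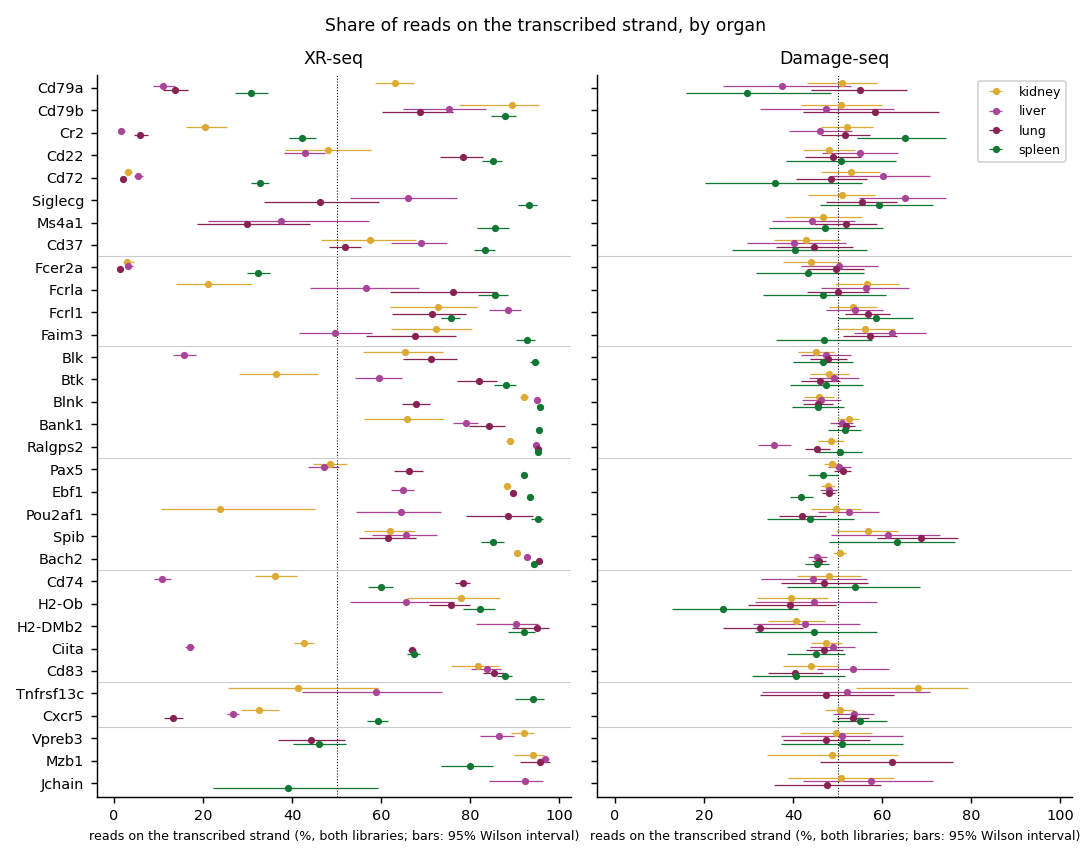
Share of reads on the transcribed strand (percent, both libraries of an organ summed) for each member in XR-seq (left) and Damage-seq (right), with 95% Wilson intervals; genes with fewer than 20 reads in an organ are left out. In XR-seq the spleen points of most genes lie above 80%, and Cr2, Cd72 and Fcer2a lie below 50% in every organ, whereas Damage-seq shares centre near 50%.

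The TS to NTS ratio of repair was itself higher in spleen than in kidney and liver for 8 of 32 members and lower for 0 (11.4% and 2.84% of all genes), and higher in lung for 4 (15.8%), with 1 lower (2.45%). Pax5 had the largest such difference in spleen (4.18 ± 0.59 log2), and its TS share was 92.0% in spleen, 48.4% in kidney and 47.0% in liver. In Damage-seq few members differed between strands. Ebf1 had fewer TS than NTS adducts in spleen, with 278 and 376 reads in the first library and 352 and 499 in the second (-0.41 ± 0.08 log2, edgeR adjusted p = 6.43e-05), and Bach2 in spleen (-0.30 ± 0.08), lung (-0.27 ± 0.06) and liver (-0.29 ± 0.07). In Ralgps2 TS damage was lower in liver (-0.77 ± 0.15), and Cr2 had more damage on the TS in spleen (1.01 ± 0.36). These were all the members called: in Damage-seq, spleen had 1 higher and 2 lower (0.585% and 13.1% of all genes), lung 0 higher and 1 lower (1.53% and 27%), liver 0 higher and 2 lower (0.983% and 32.6%) and kidney 0 (0.403% and 20.7%), with 0 at an unadjusted p under 0.05 in kidney. The spleen ratio of Ebf1 was below that of kidney and liver (-0.35 ± 0.09; 0.379% of all genes), and in lung 0 passed (1.42% higher and 1.1% lower over all genes), with 0 at an unadjusted p under 0.05.

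Depth and replicates bound these results. Reads on genes per library numbered 15619474 to 162270280 in RNA-seq and 10658675 to 59779770 in XR-seq. The study describes its replicates as biological, but the 2 control libraries of lung and of spleen differed by little more than sampling noise and each pair counted as 1 sample, so that the p-values of these contrasts draw the spread of the controls from other groups.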

How the data were processed

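The members and all gene lists were chosen with earlier results of these data known. Every file holds whole-number read counts per gene, deposited by the authors without normalization. Adduct and repair reads went through cutadapt, BWA (mm10) and Picard deduplication, were kept if a GG sat at the position of the adduct, and were split by strand. For RNA-seq, from poly-A selected RNA, the authors used STAR and featureCounts. Tool versions are not given in the sources used here. In each Damage-seq and XR-seq file 1 row, with NA for the gene and both counts, was dropped. Cdkn1a, a p53 target, had log2 fold changes of 4.33 (kidney), 3.05 (liver), 1.90 (lung) and 1.43 (spleen). It passed in kidney alone (edgeR adjusted p = 0.0129, and 0.0528 in liver). Per1 passed in kidney and liver (edgeR adjusted p = 0.0194 and 0.0163) and not in lung or spleen. The study, with DESeq2, reports both genes as significantly higher in all 4 organs, so responses it found in lung and spleen did not pass here.

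RNA was tested with edgeR 4.0.16 in R 4.3.3, using TMM factors, filterByExpr and a quasi-likelihood fit over 14 samples with 6 residual degrees of freedom. Treatment effects had to exceed 0.4 on the log2 scale at a Benjamini-Hochberg adjusted p under 0.05 over 19088 genes. Both control libraries of lung, and both of spleen, differed by little more than sampling noise (dispersion index 2.75 and 2.98, against 39.3 to 349 in the other RNA pairs), so each pair was summed and counted as 1 sample. Contrasts between organs and strands were tested against 0, for TS against NTS with the library as a block and GG counts as an offset. Levels are RPKM over exon length, or CPM per 1000 GG of that strand. The fits were tested on simulated data. Values per library are given for the called members with the largest fold (up to 6 for each direction and organ), the most highly expressed member of each role, the 6 members with most XR-seq TS reads in spleen, and members singled out after their values were seen (Spib, Fcrl1, Vpreb3, Cd72, Fcer2a and Cr2 among them). Same-numbered libraries did not pair throughout (correlations of replicate differences from -0.25 to 0.661, 0.077 in lung). Alternatives were DESeq2 1.42.0, other scalings, no filter, a test against 0, single organs and leaving out each library. Python 3.11.15 made tables and plots. Some results of the gene lists are not reported here.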

Additional observations from a re-analysis of the deposited data

Results flagged for a closer look

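In 14 comparisons a test of the difference itself found that the TS to NTS ratio of a member differed between an organ and the mean of kidney and liver (edgeR quasi-likelihood test, log2 scale). In XR-seq of spleen these were Cr2 (3.47 ± 0.50, SE), Cd72 (3.68 ± 0.48), Fcer2a (3.96 ± 0.64), Bank1 (3.23 ± 0.84), Pax5 (4.18 ± 0.59), Ebf1 (1.98 ± 0.29), Cd74 (2.14 ± 0.57) and Ciita (2.31 ± 0.27). In Cr2, Cd72 and Fcer2a the higher ratio in spleen still left more reads on the NTS than on the TS. In XR-seq of lung they were Blnk (-2.74 ± 0.46), Ebf1 (1.23 ± 0.29), Bach2 (0.86 ± 0.24), Cd74 (3.72 ± 0.57) and Ciita (2.37 ± 0.27). In Damage-seq Ebf1 in spleen was the 1 case (-0.35 ± 0.09). Genes annotated on the other strand overlap 53.5% of the body of Ciita, 41.7% of Bank1, 19.6% of Cd72, 12.5% of Pax5, 3.5% of Bach2 and 0.8% of Ebf1, and the part of antisense transcription was not tested.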

How the results depend on the processing

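Of the 32 members, 8 were called in lung RNA (71 of all 19088 genes), and under other settings 20 (each library as a replicate, 539 of 18419 genes), 19 (no filter on low counts, 345 of 24835), 20 (lung alone, 383 of 18246) or 1 (library totals, 24 of 19088). In kidney, where 2 were called, the first 3 gave 6, 5 and 1 (kidney alone; 1262, 851 and 782 genes in all), and a test against 0 gave 5 (1209 genes). In liver, where 2 were called, library totals gave 1 and liver alone 0. For lung minus spleen, where 0 were called, each library as a replicate gave 11 (112 genes in all), no filter 4 (104) and DESeq2 6 (111). In XR-seq NTS library totals gave 3 in spleen and 3 in lung and DESeq2 17 in spleen, in Damage-seq TS of spleen DESeq2 gave 0, and without the GG offset 3 members differed between strands in lung Damage-seq. The causes were not tested. Where no count over all genes stands beside a count, it is not read as particular to the members.

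Same-numbered lung libraries did not deviate together. With the replicate number as a block, fitted with each library as a replicate, 25 members were called in lung, 9 in kidney and 19 for lung minus spleen (1013, 2010 and 456 of all 18419 genes), and the fold change of Blk in spleen was 0.0321.

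When each library was left out in turn, the members called numbered 0 to 8 in lung RNA, 0 to 2 in kidney and 1 to 3 in liver. In XR-seq TS of lung they numbered 8 to 20, in XR-seq NTS 3 to 19 in spleen and 1 to 12 in lung, and in Damage-seq TS of spleen 0 to 1. An arm left with 1 sample was assumed to vary like the other groups. Counts over all genes are not set beside these ranges or those that follow, so they are not read as particular to the members.
For TS against NTS in XR-seq the range was 6 to 24 in spleen, 9 to 20 in lung, 8 to 17 in kidney and 9 to 18 in liver, and for the ratio between organs 5 to 17 in spleen and 1 to 11 in lung. In Damage-seq it was 1 to 3 (spleen) and 0 to 3 (liver) between strands, 0 to 1 for the spleen ratio and 0 to 1 for the spleen NTS.

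Among the log2 fold changes, 3 of 512 values in lung and 13 of 224 in spleen changed sign, all of members that were not called in that organ. In spleen Blk (-0.03) was 0.0321 with each library as a replicate, 0.0555 with DESeq2 size factors, 0.00739 with library totals, 0.0553 with DESeq2 and 0.0333 in spleen alone, and ranged from -0.0516 to 0.0556 when a library was left out. The same ranges were -0.0684 to 0.158 for Pax5, -0.114 to 0.168 for Ebf1, -0.0143 to 0.181 for Tnfrsf13c and -0.464 to 0.166 for Jchain in spleen, and -0.46 to 0.0404 for Cd74, -0.0927 to 0.264 for Vpreb3 and -0.0848 to 0.715 for Jchain in lung.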
